A study of Mus musculus with 2 samples.

Results

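The genes described here are the 10 named members of the endoplasmic reticulum (ER) stress and integrated stress response: Hspa5, Herpud1, Xbp1, Atf4, Asns, Trib3, Chac1, Atf3, Creb3l3 and Fgf21. They were chosen by name, and all 10 were found among the 32285 genes of a single-cell RNA-seq matrix of mouse liver. Levels were compared across cell classes, between the libraries, and among hepatocytes of different depth, mitochondrial content and zone.

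Secreted and membrane proteins fold in the ER, and hepatocytes and plasma cells are known for a heavy load of secreted protein. When unfolded protein builds up, the sensors IRE1, PERK and ATF6 start the unfolded protein response: IRE1 splices Xbp1 mRNA, ATF6 is cut to release a transcription factor, and both raise chaperones and the machinery that removes misfolded protein (ER-associated degradation, ERAD). PERK phosphorylates eIF2alpha, as do kinases that sense amino acid shortage, viral RNA or heme shortage, and this common branch, the integrated stress response (ISR), lowers bulk translation while Atf4 protein is made and turns on genes of amino acid supply, tRNA charging and feedback.

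The matrix holds 1 liver labelled Cebp KO and 1 labelled Cebp WT, both from mice fed a 40% high-fat, high-cholesterol, high-fructose diet for 2 weeks. The series describes the knockout as specific to hepatocytes. In the study such mice came from crossing Cebpa fl/fl mice with a line that carries Cre under the albumin promoter, which is active in hepatocytes. The Cre was constant or tamoxifen-inducible, and Cebpa fl/fl littermates served as controls. Which Cre line gave this liver is not stated outright in the sources used here. For livers stained after a diet of 2 weeks the paper names the constant line. The sources used here do not give the age of these mice. Cells from perfused and digested livers were purified on Percoll and captured in droplets, 1 lane per sample, for up to 6000 cells each.

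Each droplet barcode ends in suffix 1 or suffix 2, which mark the libraries called library 1 and library 2 below, and no label ties a suffix to a genotype. The genotype was not inferred, so the comparison of the libraries below is one of 2 unassigned livers without replicates, and no p-value can be given. In deep hepatocytes (defined below) Cebpa had 19 unique molecular identifiers (UMIs, each 1 captured mRNA molecule) in library 1 and 860 in library 2, a value that was not used to name either library. Library 1 had 17313 droplets with 60048646 UMIs and library 2 had 15003 with 52355243, and the median droplet held 4.07% and 41.3% of its UMIs from the mitochondrial genome. After a filter on UMIs, genes and mitochondrial share, 11617 and 6088 droplets were kept, and 34 kept barcodes occur in both libraries. Both numbers of deposited barcodes exceed the capture target, and shallow hepatocytes (defined below) make up 73.3% and 53.3% of the kept droplets.

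Kept droplets were placed by marker genes in 15 classes, each named after the cells it resembles. A class was given by at least 2 of its markers making up at least 0.1% of UMIs (5% for erythroid cells), and a droplet with none of these and at least 6% of its UMIs from hepatocyte markers was a hepatocyte. Hepatocytes were called deep at 5000 UMIs or more and shallow below. There were 668 deep hepatocytes in library 1 (median 23578 UMIs) and 519 in library 2 (median 13064), against 8513 and 3245 shallow ones (medians of 1145 and 1202). All 10 hepatocyte markers reached 20 CPM (UMIs of a gene per 1000000 UMIs of the class) in deep hepatocytes of each library. Levels below are CPM of UMIs summed over the droplets of a class, with an exact 95% Poisson interval; ratios carry an exact conditional 95% interval. These intervals cover counting error only, not the spread between animals.

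The DNA elements through which the pathway is known to act were looked for in the start regions of these genes, and the matches are shown to let each member be read beside its element. RefSeq promoters (250 bases before to 50 after the start, GRCm38.p6) were found for all 10 genes and searched on both strands for the ER stress element ERSE (CCAAT, 9 bases, CCACG), for its shorter relative ERSE-II (ATTGG, 1 base, CCACG), for the unfolded protein response element UPRE (TGACGTGG) and for the C/EBP-ATF response element CARE (TGATG, 1 base, AA), to which Atf4 binds. Matches are in capitals, 15 bases are shown to each side, and each line runs 5′ to 3′ along the gene's own strand.
Hspa5, ERSE, chr2:34772010-34772058, plus strand: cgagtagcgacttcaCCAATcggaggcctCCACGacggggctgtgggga
Herpud1, ERSE-II, chr8:94386362-94386402, plus strand: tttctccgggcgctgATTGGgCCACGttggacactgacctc
Herpud1, CARE, chr8:94386302-94386339, plus strand: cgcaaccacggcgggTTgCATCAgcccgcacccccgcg
Asns, CARE, chr6:7693210-7693247, minus strand: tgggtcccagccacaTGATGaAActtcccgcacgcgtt
Trib3, CARE, chr2:152344024-152344061, minus strand: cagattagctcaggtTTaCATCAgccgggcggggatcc
Chac1, CARE, chr2:119351034-119351071, plus strand: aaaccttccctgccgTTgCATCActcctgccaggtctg
Atf3, CARE, chr1:191183421-191183458, minus strand: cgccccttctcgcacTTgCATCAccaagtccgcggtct
Fgf21, CARE, chr7:45615607-45615644, minus strand: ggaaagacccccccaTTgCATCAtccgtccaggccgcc

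Hspa5 was the member with an ERSE, which 39 of 32851 promoters hold (0.119%), and Herpud1 the one with an ERSE-II, found in 12 (0.0365%). CARE was found in 6 of the 10 members (Herpud1, Asns, Trib3, Chac1, Atf3 and Fgf21) and in 3.97% of all promoters. UPRE was in 0.676% of promoters and in 0 of the members. The windows of Xbp1, Atf4 and Creb3l3 held none of the 4 elements in these letters. A match is a description of letters and not a measured binding site.

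Hspa5, which encodes the ER chaperone BiP, was found in every class (gene at chr2:34771970-34777547, plus strand, GRCm38). Its level was 643 CPM in deep hepatocytes of library 1 (630 to 656, 9695 UMIs) and 747 CPM in library 2 (728 to 766, 5861 UMIs). Plasma cells, which secrete antibody, had the highest level in each library, at 1430 CPM (1310 to 1558, 21 droplets) and 2166 CPM (2019 to 2321, 27 droplets). No interval of another class reached those of plasma cells. Next in library 1 came monocytes at 696 CPM (584 to 824), whose interval overlaps that of Kupffer cells or macrophages at 695 CPM (665 to 726), while the deep hepatocyte interval lies below the latter. In library 2 deep hepatocytes came second, above the 639 CPM (612 to 666) of Kupffer cells or macrophages. B cells had 311 and 322 CPM (libraries 1 and 2), and erythroid cells the lowest level, 144 and 168 CPM.

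Herpud1, an ER membrane protein of the ERAD machinery (chr8:94386438-94395377, plus strand), was highest in deep hepatocytes, at 446 CPM (436 to 457) in library 1 and 653 CPM (635 to 671) in library 2. Next came shallow hepatocytes and plasma cells, at 258 and 257 CPM in library 1 and 471 and 505 CPM in library 2, with overlapping intervals that stayed below that of deep hepatocytes. Among the 12 classes other than hepatocytes and plasma cells, Herpud1 lay between 68.4 CPM in erythroid cells and 263 CPM in endothelial cells, both of library 2. Herpud1 overlaps the gene Gm15890 on the opposite strand, and the sources used here do not say whether counting used strand.

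Xbp1, the transcription factor whose mRNA is spliced by IRE1 (chr11:5520659-5525893, plus strand), was highest in plasma cells and next in plasmacytoid dendritic cells. It had 959 CPM (861 to 1065) in plasma cells of library 1 and 804 CPM (715 to 900) in library 2, and in plasmacytoid dendritic cells 301 CPM (265 to 340) and 299 CPM (258 to 345). B cells, from which plasma cells arise, had 35.0 and 34.1 CPM. Deep hepatocytes held 168 CPM (162 to 175) in library 1 and 108 CPM (101 to 115) in library 2. The 3' tags do not show whether the intron cut out by IRE1 was removed, so no statement on splicing can be made.

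Atf4, the transcription factor at the centre of the ISR (chr15:80255184-80257541, plus strand), is controlled mainly at translation, which these counts do not measure. Deep hepatocytes had 53.5 CPM (49.9 to 57.4) and 51.9 CPM (47.0 to 57.2), and the highest class, plasma cells, had 126 CPM (92.2 to 168) and 102 CPM (72.3 to 140), which overlaps endothelial cells at 82.5 CPM (61.4 to 108) and 87.8 CPM (65.5 to 115). Erythroid cells were lowest in each library, at 6.72 and 15.6 CPM, with 8 UMIs each.

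The classical Atf4 targets among the members were near the detection limit in hepatocytes. Asns, which makes asparagine, had 3 UMIs in the deep hepatocytes of library 1 and 0 in library 2, which allows up to 0.382 CPM. It was detected in plasma cells at 27.4 CPM (13.1 to 50.4, 10 UMIs) and 34.9 CPM (18.6 to 59.8, 13 UMIs), and no other class had more than 7 UMIs in either library. Trib3, a pseudokinase that feeds back on Atf4, had 21 and 20 UMIs in deep hepatocytes (1.39 and 2.55 CPM). Chac1, which degrades glutathione, was at 4.05 CPM (3.09 to 5.20, 61 UMIs) and 4.33 CPM (34 UMIs), and intervals of deep and shallow hepatocytes overlap for it in each library. Plasma cells of library 2 had the highest value, 16.1 CPM (5.92 to 35.1) from 6 UMIs, 4 of them in 1 droplet, while those of library 1 had 0 UMIs, which allows up to 8.22 CPM.

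Atf3, a stress-induced repressor, was highest in cholangiocytes, the cells of the bile ducts, followed by neutrophils, monocytes and conventional dendritic cells in different orders. Cholangiocytes had 70.3 CPM (38.4 to 118, 21 droplets) and 157 CPM (97.0 to 239, 14 droplets), neutrophils 59.8 and 67.2 CPM, monocytes 41.2 and 76.3 CPM and conventional dendritic cells 42.8 and 20.3 CPM. Deep hepatocytes had 2.72 CPM (1.95 to 3.69, 41 UMIs) and 5.61 CPM (4.07 to 7.53, 44 UMIs). Each of the 4 classes has an interval that overlaps that of its neighbour in the order, and all 4 lie above that of deep hepatocytes in each library. Kupffer cells or macrophages had 9.81 and 13.7 CPM, and stellate cells of library 2 had 28.8 CPM from 3 UMIs. The summed immediate early and heat shock genes known to rise during tissue dissociation were also highest in neutrophils (4115 and 3511 CPM) and cholangiocytes (2812 and 2939 CPM), beside 363 and 445 CPM in deep hepatocytes, and their part in the Atf3 levels was not tested. Atf3 overlaps the gene Gm24748 on the opposite strand.

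Creb3l3 encodes CREBH, a liver transcription factor that is held in the ER membrane and released by cleavage (chr10:81084324-81098874, minus strand), and Fgf21 is a hepatokine that it and Atf4 can induce. Creb3l3 had 229 CPM (222 to 237) and 208 CPM (198 to 219) in deep hepatocytes, above every other class. Outside hepatocytes it ranged from 18.8 to 109 CPM, and erythroid cells, which should lack it, had 33.6 CPM (24.0 to 45.7) and 56.7 CPM (37.9 to 81.4). Fgf21 (chr7:45613886-45615490, minus strand) had 23 UMIs in 668 deep hepatocytes of library 1, 1.53 CPM (0.967 to 2.29), and 72 UMIs in 519 of library 2, 9.18 CPM (7.18 to 11.6). Shallow hepatocytes had 1.16 CPM (0.635 to 1.95) and 7.99 CPM (5.68 to 10.9). In T cells Fgf21 had 0 and 3 UMIs, which allows up to 0.937 CPM in library 1.

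**Figure D1:**
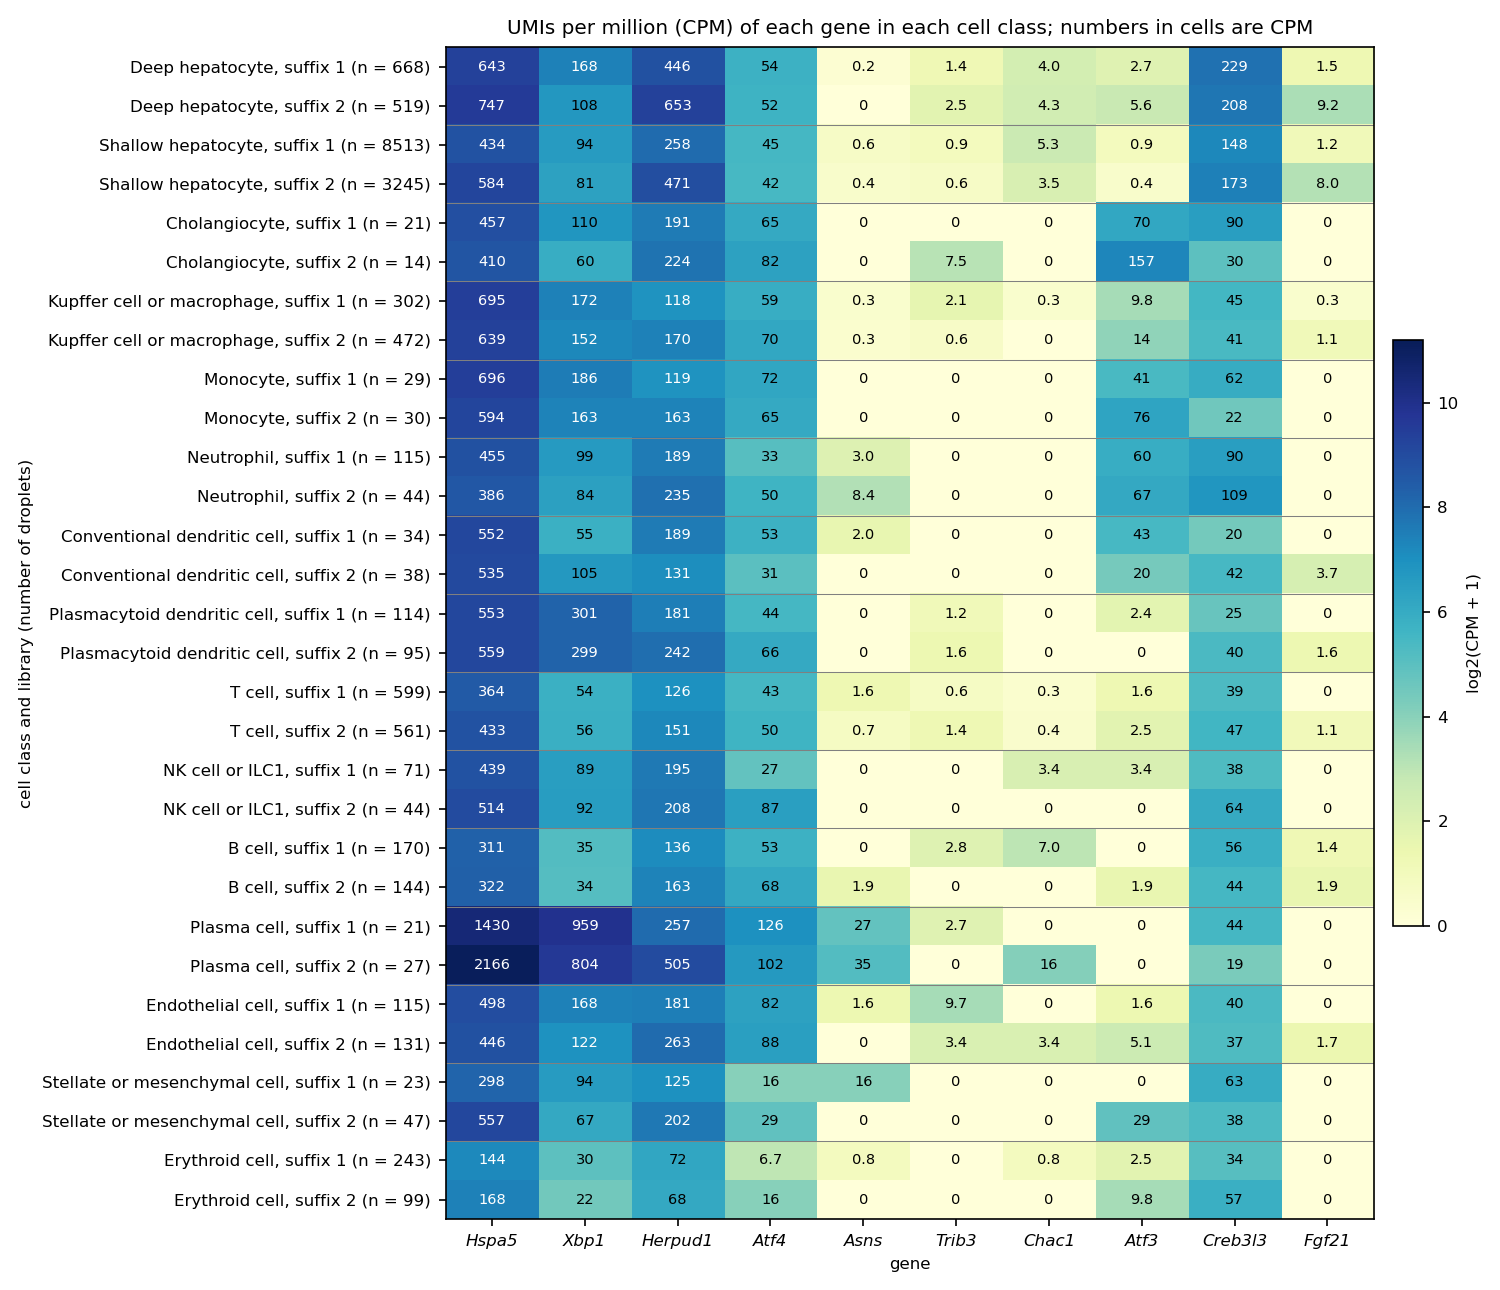
Heat map of CPM (numbers in the cells; colour is log2 of CPM + 1) for the 10 genes (columns) in 15 cell classes of each library (rows, with the number of droplets). Hspa5 and Xbp1 peak in plasma cells (1430 and 2166 CPM, 959 and 804 CPM), Herpud1 and Creb3l3 in deep hepatocytes, and Atf3 in cholangiocytes (70.3 and 157 CPM).

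In plasma cells the genes of ER folding and ERAD (chaperones, disulfide isomerases and the export machinery) reached their highest summed level, 14531 CPM (14143 to 14927) in library 1 and 15958 CPM (15555 to 16369) in library 2. Plasmacytoid dendritic cells followed with 5296 and 5295 CPM. The summed ISR target list (amino acid synthesis and transport, tRNA charging, feedback) was not set apart in this way, at 1200 CPM (1090 to 1318) and 1126 CPM (1021 to 1239) in plasma cells beside 1083 CPM (975 to 1201) and 1151 CPM (966 to 1360) in neutrophils and 890 and 1091 CPM in deep hepatocytes.

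Gene by gene, plasma cells were set against the sum of all other classes outside hepatocytes, by a pair of call rules. The first asked for at least 20 CPM on either side and a ratio of at least 2 with 3 UMIs added to each sum. It called 12.6% of 7513 genes higher and 18.0% lower in plasma cells of library 1, and 6.93% of 7246 higher and 34.2% lower in library 2. Because the plasma cell sum is far smaller, the added UMIs raise it more, and a gene can pass the minimum through plasma cells alone. The second rule, chosen after these values were seen, added no UMIs, asked for an interval off 1 and applied the 20 CPM to all classes outside hepatocytes together. It called 5.32% of 6864 genes higher and 28.2% lower in library 1, and 3.21% higher and 49.2% lower in library 2, and is the one read below.

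Of the 5 members tested, 3 were higher in each library, Hspa5 and Xbp1 in both, with Atf4 in library 1 and Herpud1 in library 2. Xbp1 was 8.55-fold (7.57 to 9.64) and 7.12-fold (6.25 to 8.10) higher, and Hspa5 3.07-fold (2.80 to 3.36) and 4.28-fold (3.97 to 4.61). Creb3l3 was lower in library 2, at 18.8 CPM from 7 UMIs in plasma cells and 44.2 CPM in the other classes. Asns reached 20 CPM in plasma cells alone (27.4 and 34.9 CPM against 1.00 and 0.511 CPM), so it was not tested. Of the ER folding and ERAD list, 22 of 26 genes in library 1 and 22 of 27 in library 2 were higher and 0 lower. The ISR target list had 5 of 13 higher and 1 lower (Cth) in library 1, and 4 of 11 higher and 0 lower in library 2, with the tRNA synthetases Nars and Wars higher in both. Of the 11 stress sensors and eIF2alpha genes, Eif2ak2, the kinase PKR, was lower in each library, Eif2ak4, the kinase GCN2, was lower in library 2 (from 1 UMI), and Ern1, which encodes IRE1, was higher in library 2 (2.05-fold, 1.48 to 2.79) and 1.92-fold (1.31 to 2.71) above the other classes in library 1, under the 2-fold limit. The plasma cell values rest on 21 and 27 droplets.

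In deep hepatocytes none of the members was called past 2-fold between the libraries, by the first of the rules above. The share of all 4707 genes called was 2.44% higher and 1.91% lower in library 1, and 5 members could be called. Herpud1 was 1.46-fold (1.41 to 1.52) and Hspa5 1.16-fold (1.12 to 1.20) higher in library 2. Xbp1 was 1.56-fold (1.44 to 1.69) and Creb3l3 1.10-fold (1.04 to 1.17) higher in library 1, and the interval of Atf4 included 1 (ratio 1.03, 0.915 to 1.17). Of the 4707 genes, 31.4% had an interval above and 24.0% below a ratio of 1, so that intervals off 1 are common at this depth. Fgf21, under the minimum for a call, was 6.01-fold (3.72 to 10.1) higher in library 2, and 1.68-fold (0.677 to 4.40) at no more than 10% mitochondrial UMIs. Atf3 was 2.06-fold (1.32 to 3.24) higher in library 2, but in the deep hepatocytes with no more than 10% mitochondrial UMIs it had 9 UMIs in library 1 and 0 in library 2, the opposite direction.

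**Figure D2:**
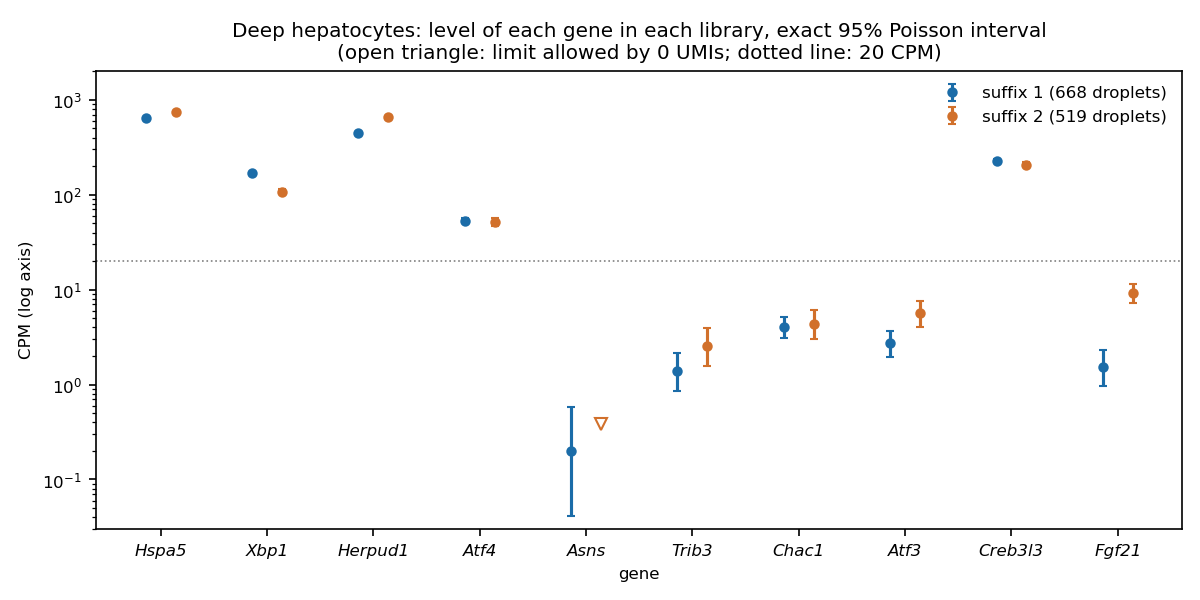
Level in CPM (log axis) of each gene in deep hepatocytes, with points for the libraries, exact 95% Poisson intervals and a dotted line at 20 CPM; the open triangle is the limit that 0 UMIs of Asns allow in library 2. Hspa5, Herpud1, Xbp1, Atf4 and Creb3l3 lie above the line in each library, and Fgf21 shows the widest gap, 1.53 against 9.18 CPM.

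Most genes of the ER folding and ERAD list were, like Hspa5 and Herpud1, lower in library 1. Of 26 tested in deep hepatocytes, 0 were called past 2-fold, 22 had a ratio below 1 (lower in library 1), 17 of them with an interval below 1, and 2 had an interval above 1. The median log2 ratio of library 1 over library 2 was -0.18, beside 0.04 over all genes tested. Calr, a lectin chaperone, had 574 and 528 CPM (1.09-fold higher in library 1, 1.05 to 1.13) and P4hb, a disulfide isomerase, 455 and 446 CPM (ratio 1.02, 0.980 to 1.06). Hsp90b1, the ER form of HSP90, was 1.26-fold (1.21 to 1.31) higher in library 2, as was the folding factor Manf by 1.48-fold (1.40 to 1.56). The ISR target list had 1 of 10 tested genes called, Cebpg, at 76.1 CPM in library 1 and 35.2 CPM in library 2 (2.16-fold, 1.90 to 2.48), and a median log2 ratio of -0.01, with 3 intervals above 1 and 3 below. Atf5, a relative of Atf4, was at 199 and 339 CPM, and Cth, which makes cysteine, at 143 and 243 CPM. Cebpg encodes a C/EBP family partner of Atf4. Of the 6 sensors and eIF2alpha genes tested, Eif2ak2 was at 33.7 and 14.1 CPM (2.38-fold, 1.94 to 2.95), so that it reached 20 CPM in library 1 alone, and the other 5 were within 2-fold.

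A gene can pass the minimum through the library in which it is high, so the calls were repeated with 20 CPM asked of both libraries together, a rule added after the data were seen. Of 4467 genes, 2.26% were then called higher and 1.43% lower in library 1. Members called stayed at 0 of 5 and ER genes at 0 of 26, Cebpg was called of 9 ISR genes, and Eif2ak2 of 6 sensors.

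Shallow hepatocytes were compared in the same way. Their UMIs per droplet overlap those of erythroid droplets for Hspa5, Xbp1 and Creb3l3 and, in library 1, for Herpud1, so these ratios can repeat the free RNA of each library and are no second look at the deep hepatocytes. In them 2.42% of 4139 genes were called higher and 1.88% lower in library 1. The interval was above 1 for 44.6% of these genes and below 1 for 22.5%, and the median log2 ratio was 0.16. The ER list had a median of -0.57, with 22 of 26 intervals below 1 and 1 above. The ISR list had a median of 0.38, with 7 of 11 intervals above 1 and 3 below, and Cebpg was at 68.9 and 29.1 CPM. Herpud1 was 1.83-fold (1.73 to 1.93) and Hspa5 1.35-fold (1.28 to 1.41) higher in library 2, and Xbp1 1.16-fold (1.03 to 1.30) higher in library 1. No member was called.

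Genes downstream of Creb3l3 and Fgf21 were also counted in deep hepatocytes, where 2.44% of all 4707 genes were called higher and 1.91% lower in library 1. Of 8 tested targets of CREB3L3, 2 were called, both lower in library 1. They were Apoa4, an apolipoprotein, at 136 and 395 CPM, and Insig2, an ER anchor of sterol control, at 75.4 and 246 CPM. Creb3l3 itself was 1.10-fold higher in library 1, but 1.17-fold (1.08 to 1.27) higher in library 2 in shallow hepatocytes and 1.09-fold (0.918 to 1.29) in deep ones of at most 10% mitochondrial UMIs. It was higher in library 1 in 8 classes, with 1 interval off 1, and in library 2 in 7, with 2 off 1. Of the FGF21 receptor genes Fgfr2 alone reached 20 CPM, and in library 2 alone, at 10.2 and 21.8 CPM, a level that the minimum over both libraries together would leave untested. The dissociation genes had 0 of 8 called, but 7 of 8 lay below 1 with a median log2 ratio of -0.39. Their part in the difference of the ER genes was not tested.

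Herpud1 was higher in library 2 in 13 of 15 classes, 7 of them with intervals off 1, and higher in library 1 in conventional dendritic and erythroid cells. Droplets can hold free hepatocyte RNA, which was not measured apart, and its part in these directions was not tested. The mean Herpud1 UMIs per droplet of erythroid cells was 0.354 in each library. For Herpud1 1 interval lay off 1 toward library 1. Xbp1 was higher in library 1 in 12 of 15 classes, 4 of them with intervals off 1, and had 1 interval off 1 toward library 2. Hspa5 was higher in library 2 in 9 classes, 5 of them with intervals off 1, and in library 1 in 6, 1 of them with an interval off 1.

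Shallow hepatocytes held few UMIs of any member. Hspa5 averaged 14.5 UMIs (14.2 to 14.8) per deep hepatocyte of library 1 and 11.3 in library 2. A shallow hepatocyte held 0.615 (0.598 to 0.632) and 0.879 (0.847 to 0.911), and an erythroid droplet, with median depths of 4972 and 4816 UMIs, 0.708 (0.606 to 0.822) and 0.869 (0.695 to 1.07). Xbp1 was at 0.133 UMIs per shallow hepatocyte of library 1 and 0.148 per erythroid droplet, and in library 2 at 0.122 and 0.111. The intervals of shallow hepatocytes and erythroid droplets overlap for Hspa5 and Xbp1 in each library. Herpud1 was the exception in library 2, with 0.708 (0.679 to 0.737) per shallow hepatocyte and 0.354 (0.246 to 0.492) per erythroid droplet. At this depth the Hspa5 and Xbp1 of shallow hepatocytes cannot be told apart from free RNA.

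**Figure D3:**
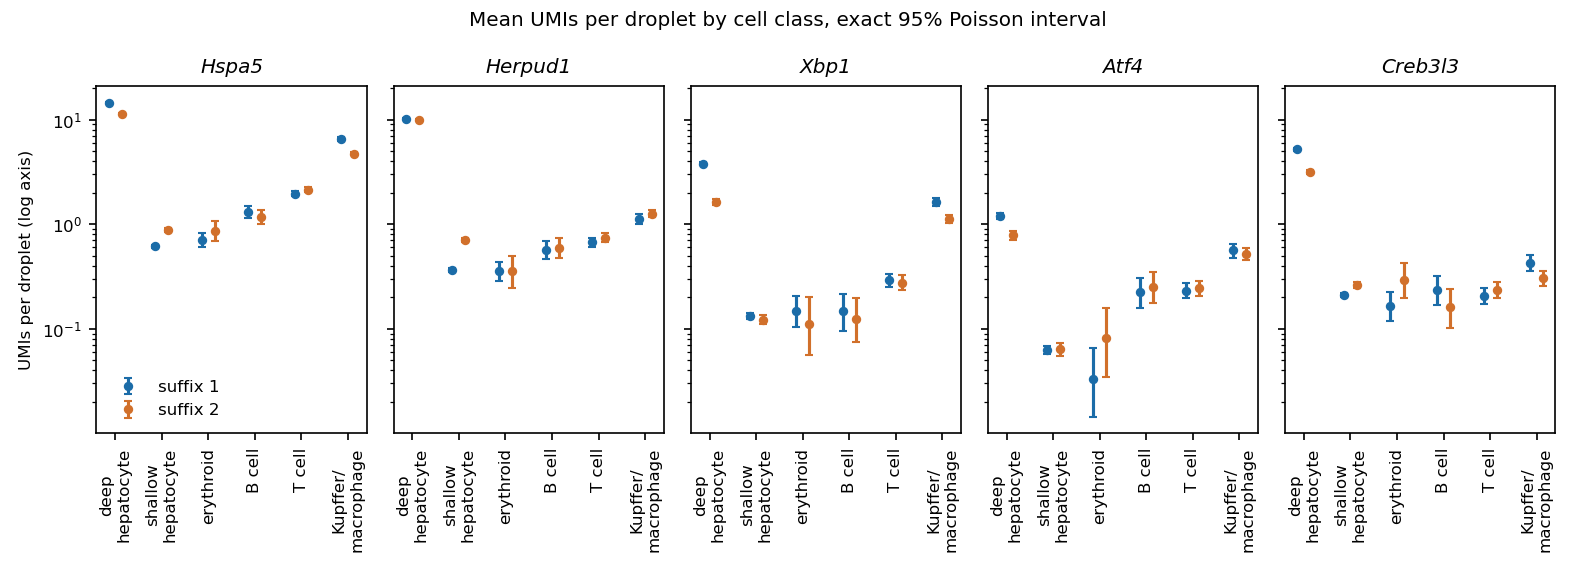
Mean UMIs per droplet (log axis) of 5 genes in 6 cell classes of each library, with exact 95% Poisson intervals. Shallow hepatocytes sit near erythroid droplets (Hspa5 0.615 and 0.708 in library 1), and deep hepatocytes are far above both (14.5).

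As a share of UMIs, the 5 testable members were higher in deep than in shallow hepatocytes, within 2-fold. In library 1, 17.4% of 4851 genes were called higher and 4.76% lower in deep hepatocytes, and in library 2 7.58% of 4540 higher and 1.34% lower. None of the 5 testable members was called in either library. All 5 had an interval above 1 in each, beside 45.4% of genes in library 1 and 43.1% in library 2. Of the sensors, 2 of 6 tested in library 1 and 1 of 4 in library 2 were called higher, and 0 lower. Ern1 was 3.85-fold (3.13 to 4.77) and 2.21-fold (1.68 to 2.94) higher, and Atf6 2.21-fold (1.90 to 2.57) in library 1, both under 20 CPM in those shallow droplets. The ER list had 4 of 26 tested genes called higher and 0 lower in each library, beside the shares of all genes above. Its intervals lay above 1 for 19 genes and below for 6 in library 1, and for 15 and 8 in library 2. Sel1l, Ero1lb and Sec24d were called in both libraries (Ero1lb from 18.3 CPM in shallow hepatocytes of library 1). Deep and shallow hepatocytes also differed in zone markers and mitochondrial share. Pericentral genes were lower in deep hepatocytes, 5 of 5 in library 1 and 6 of 6 in library 2 with medians of -1.98 and -1.89, and periportal genes had medians of 0.60 and 0.52. The median mitochondrial share was 15.6% and 15.5% in deep and 1.63% and 3.37% in shallow hepatocytes. Their part in the result was not tested.

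Levels of the members differed with the mitochondrial share of a droplet, which is known to be high in damaged cells. For this the hepatocyte gate was applied without the mitochondrial limit and levels were taken per 1000000 non-mitochondrial UMIs. Hspa5 in droplets of at least 5000 UMIs went from 341 (314 to 369) at up to 10% to 833 (816 to 851) at 10 to 25%, 1107 (1051 to 1166) at 25 to 50% and 1790 (1672 to 1914) above 50% in library 1. The same bands held 478 (446 to 513), 1003 (976 to 1031), 1793 (1707 to 1882) and 1903 (1836 to 1971) in library 2. Each step was beyond the intervals, except the last of library 2. Per all UMIs, Hspa5 fell in the last band, with 327, 687, 737 and 581 CPM in library 1 and 461, 827, 1165 and 667 CPM in library 2. Herpud1 rose and then fell, from 270 to 573, 686 and 420 in library 1 and from 545 to 835, 846 and 559 in library 2. Atf4 dropped in the last band, to 27.3 (14.5 to 46.7) and 15.2 (9.87 to 22.5), from 65.0 and 62.1 in the band before. Alb, the main secreted product of hepatocytes, rose with each band, from 24210 to 109610 in library 1 and from 32675 to 101421 in library 2. Depth also differed between the bands, with medians of 6462, 27921, 15143 and 7090 UMIs per droplet in library 1 and 7754, 16634, 8985 and 6824 in library 2, and its part was not tested.

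**Figure D4:**
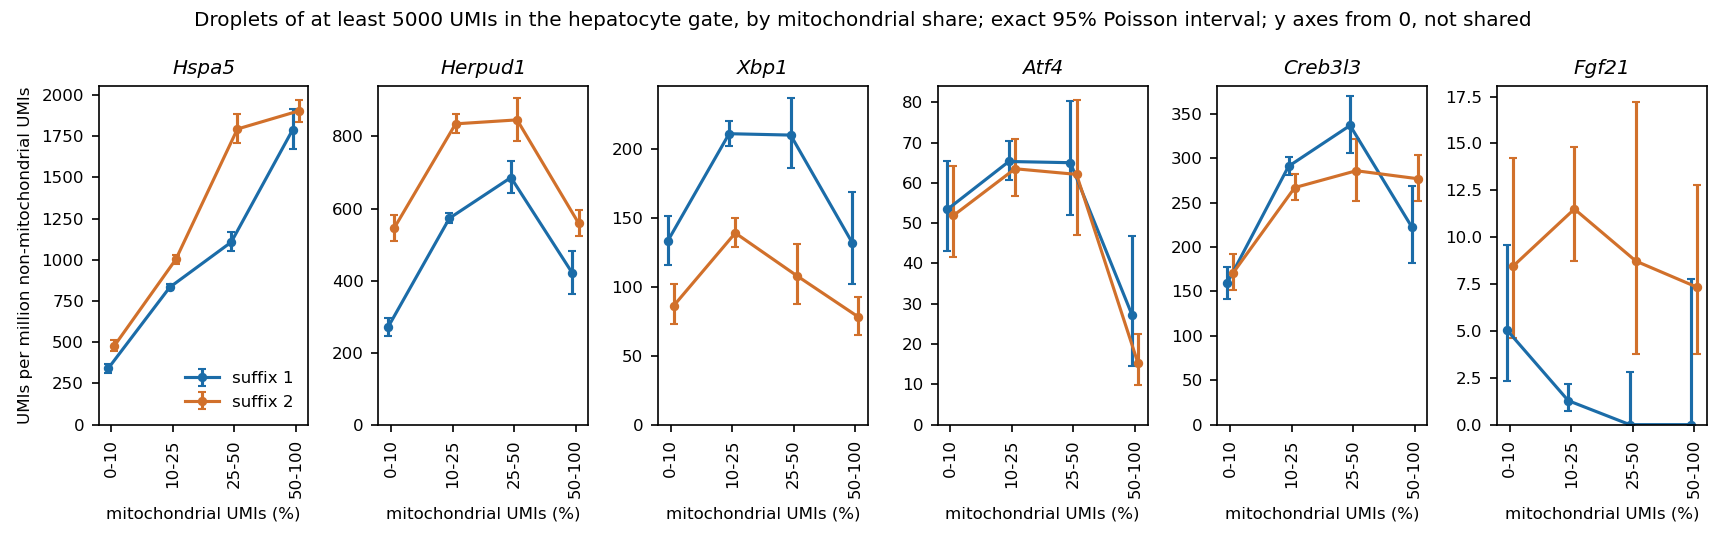
UMIs per 1000000 non-mitochondrial UMIs of 6 genes in hepatocyte droplets of at least 5000 UMIs, by percent of mitochondrial UMIs, with exact 95% Poisson intervals and y axes from 0 that differ between panels. On this scale Hspa5 rises across the bands in each library (341 to 1790 and 478 to 1903; per all UMIs it falls in the last band), whereas Herpud1 and Xbp1 peak in the middle bands and Atf4 is lowest above 50%.

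The contrast of droplets above 50% with those at 10 to 25% gave different values for the ER and ISR lists. Most genes lost share: 33.8% of 5117 genes were called lower and 5.96% higher in library 1, and 71.2% of 5094 lower and 5.61% higher in library 2, with median log2 ratios of -0.73 and -1.65. The ER folding and ERAD list had a median of 0.47 in library 1, with 6 of 26 tested genes called higher and 2 lower, and 0.21 in library 2, with 3 of 27 higher and 4 lower. Hsp90b1, Pdia3 and Pdia6 were higher in both. The ISR list had medians of -0.85 and -1.98, with 4 of 9 and 10 of 11 called lower. Zone markers differed too. The pericentral Cyp2e1 went from 377 (366 to 389) per 1000000 non-mitochondrial UMIs at 10 to 25% to 3458 (3293 to 3629) above 50% in library 1 and from 346 (330 to 362) to 5000 (4893 to 5110) in library 2. Periportal genes had medians of -1.24 and -2.36, with 4 of 6 called lower in each library, although Cyp2f2 went from 2519 to 3271 and from 1515 to 1610. The dissociation genes had medians of -0.96 and -2.58, with 3 of 8 and 9 of 9 called lower. The part of zone and dissociation genes in the values of the members was not tested. Of the members, Hspa5 was called higher in library 1 and Atf4 lower in library 2.

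Below 10% mitochondrial UMIs, the difference between the libraries was wider for Herpud1, Hspa5 and the ER list, near its earlier value for Xbp1 and Atf4 (log2 ratios of 0.60 and 0.03, against 0.64 and 0.04) and narrower for Fgf21. Of 4747 genes in these deep hepatocytes (179 droplets in library 1 and 162 in library 2), 8.13% were called higher and 2.59% lower in library 1, and the median log2 ratio was 0.24. Herpud1 was called, at 259 and 526 CPM, a 2.03-fold (1.82 to 2.27) higher level in library 2. Hspa5 was 1.41-fold (1.27 to 1.57) higher in library 2. Of the ER list, 6 of 26 tested genes were called, all lower in library 1 (Sdf2l1, Creld2, Manf, Syvn1, Edem1 and Derl2), 23 had a ratio below 1 and the median log2 ratio was -0.50. Creld2 (14.6 and 40.1 CPM) and Syvn1 (7.55 and 22.1 CPM) reached 20 CPM in library 2 alone. With the minimum asked of both libraries together, 6.25% of 4275 genes were called higher and 2.39% lower in library 1, the same list had 5 of 24 called lower, without Syvn1, and its median was -0.45. Edem1, a lectin of ERAD, was at 25.9 and 65.1 CPM, and Manf at 174 and 350 CPM. The ISR list had a median of 0.27 over 11 tested genes. Cebpg was called higher in library 1 (107 and 34.9 CPM), and Ddit3, which encodes CHOP, was at 13.5 and 33.7 CPM, reaching the minimum in library 2 alone. Alb was 1.35-fold (1.33 to 1.37) higher per non-mitochondrial UMI in library 2 in the same droplets, and its part in these differences was not tested. The dissociation genes had a median log2 ratio of 0.04 here, with 3 of 8 below 1.

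Within the other bands, Herpud1 kept its direction, at 1.46-fold (1.40 to 1.51), 1.23-fold (1.12 to 1.36) and 1.33-fold (1.14 to 1.56) higher in library 2 from 10 to 25% upward. Xbp1 was higher in library 1 in all 4 bands, by 1.54-, 1.51-, 1.95- and 1.70-fold. Fgf21 differed by 8.94-fold (4.93 to 17.4) at 10 to 25% but by 1.67-fold (0.673 to 4.37), an interval that includes 1, below 10%, where it had 9 and 14 UMIs. In the upper bands it had 0 UMIs in library 1 and 8 in library 2 (25 to 50%), and 0 and 12 (above 50%).

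**Figure D5:**
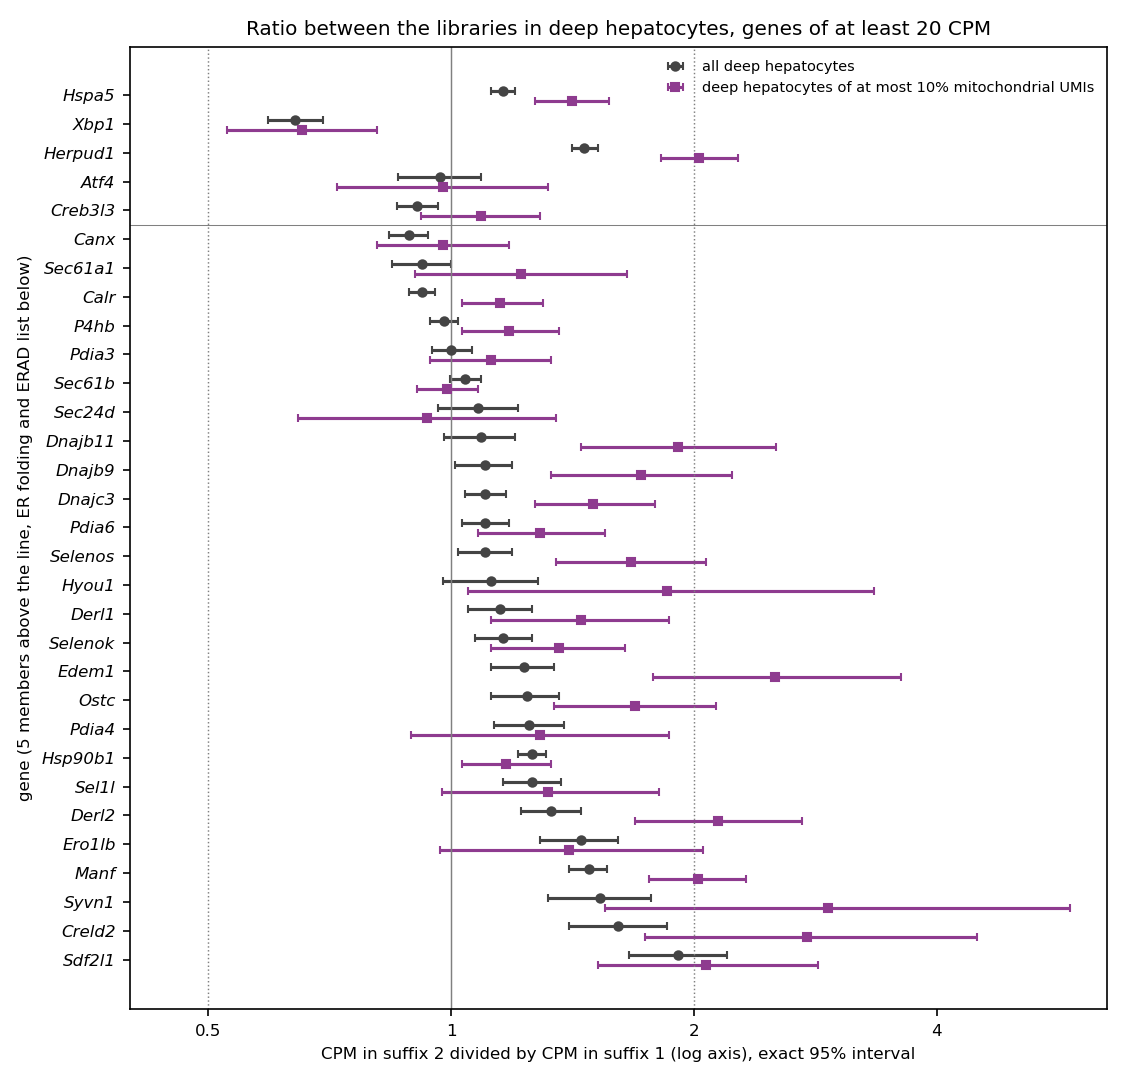
CPM in library 2 divided by CPM in library 1 (log axis) with exact 95% intervals, for the 5 members (top) and the 26 ER folding and ERAD genes of at least 20 CPM in deep hepatocytes, over all of them (circles) and at no more than 10% mitochondrial UMIs (squares). Most list genes lie right of 1, and Herpud1 moves from 1.46 to 2.03 at the lower mitochondrial share.

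Zone along the liver lobule was read from deep hepatocytes ranked by pericentral against periportal genes. They were split in 3 zones of near equal droplet number. These zones are relative ranks within deep hepatocytes, in which pericentral genes were lower than in shallow ones. The pericentral Cyp2e1 had 84.6 CPM in the periportal and 845 CPM in the pericentral zone of library 1 (104 and 799 CPM in library 2). The periportal Cyp2f2 went from 2099 to 1649 CPM (1371 to 842 CPM in library 2), so the pericentral zone still held it. Hspa5 was higher in the periportal zone, at 679 CPM (659 to 700) against 586 CPM (561 to 612) in library 1 and 856 CPM (824 to 889) against 585 CPM (551 to 620) in library 2. In library 2 the periportal zone also exceeded the pericentral one for Herpud1 (1.24-fold, 1.15 to 1.33), Creb3l3 (1.38-fold, 1.20 to 1.57) and Xbp1 (1.24-fold). These intervals lie above 1 in library 2 and include 1 in library 1. The share of all genes with an interval off 1 between the zones was not computed, so no trait particular to the members is read. The pericentral zone was shallower, with medians of 11828 UMIs against 30185 in library 1 and 7901 against 16958 in library 2, and had a lower mitochondrial share (12.8% in library 1 and 10.4% in library 2, against 15.9% in the periportal zone of library 2). The part of depth and mitochondrial share in the zonal differences was not tested. Herpud1 was higher in library 2 in every zone, at 437 and 682 CPM (periportal), 465 and 690 CPM (middle) and 436 and 551 CPM (pericentral). Zonal markers differed between the libraries in both directions. Of the pericentral genes tested in deep hepatocytes, Glul was called higher in library 1 (53.8 and 21.9 CPM), and Oat, which reached 20 CPM in library 2 alone, was at 6.90 and 30.8 CPM. Of 6 periportal genes, Hal was called lower (202 and 491 CPM), while Cyp2f2 had 1933 and 1171 CPM.

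Among single deep hepatocytes, Hspa5 and Herpud1 spread more widely than counting alone gives. With each droplet thinned to 5000 UMIs, Hspa5 averaged 2.88 UMIs in library 1 (range 0 to 11) and 3.56 in library 2 (0 to 14), and its variance over its mean was 1.71 in each. This ratio is 1 for pure counting, and it was 1.47 and 1.52 for Herpud1. The droplets pool mitochondrial shares of up to 25%, over which both levels differ. From up to 10% to 10 to 25%, Hspa5 went from 327 to 687 CPM in library 1 and from 461 to 827 in library 2. Herpud1 went from 259 to 473 and from 526 to 689 CPM. The part of this mix was not tested, and no ratio was computed for genes outside the members. Xbp1, Creb3l3 and Atf4 averaged near or below 1 UMI after thinning, where low counts hold the ratio near 1, so none is read for them. Correlations between members over droplets of 10 to 25% mitochondrial UMIs were weak. The highest was Hspa5 with Herpud1 at Pearson's r = 0.20 over 357 droplets of library 2, against 0.08 over 489 of library 1, and droplets of 1 library are not replicates. Splitting these droplets in 4 groups by Hspa5 rank gave 20.1 UMIs of the ER list per droplet (19.2 to 21.1) in the lowest and 28.1 (27.0 to 29.3) in the highest group of library 2, and 19.3 and 22.7 (21.8 to 23.5) in library 1. Alb went from 199 to 235 and from 188 to 206 between the same groups. ISR list UMIs stayed at 5.32 (4.86 to 5.82) and 5.26 (4.79 to 5.76) in library 2.

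Over the 24 combinations of a class and a library with at least 30 droplets, the genes whose log2(CPM + 10) pattern was most like that of a member were named by Pearson's r, as a description. For Hspa5 they were Surf4 (0.92), Kdelr1 (0.89) and Tmbim6 (0.87), which encode a cargo receptor, a retrieval receptor and a membrane protein of the ER and Golgi. Xbp1 was nearest to Ssr1 (0.87), Rrbp1 (0.87) and Uso1 (0.84), and Atf4 to Eif4g2 (0.88), Eif4h (0.85) and Hnrnpk (0.84), genes of translation and RNA binding. Creb3l3 followed the hepatocyte genes Fetub (0.95), Hpn (0.94) and Slc25a47 (0.94), and Herpud1 followed Tmprss6 (0.88), Cers2 (0.87) and Pxmp4 (0.86). Atf3 was most like Tgfbi (0.90), Gm34084 (0.87) and Bst1 (0.86). The minimum of 30 droplets left out plasma cells, where Hspa5, Xbp1 and Atf4 are highest, and cholangiocytes, where Atf3 is highest. Classes of 1 library share its depth and can share its free RNA.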

How the data were processed

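The deposited file holds raw UMI counts per gene and droplet, from 10x 3' libraries; the authors used Cell Ranger 7.1.0, and the submitters' processing notes also name bcl2fastq 2.20.0, STAR 2.7.2a and mm10. Both libraries share 1 matrix. Droplets with at least 500 UMIs, at least 200 genes and at most 25% mitochondrial UMIs were kept. Hepatocytes had no other class and at least 6% hepatocyte marker UMIs. Other classes required under 8% of these, and a marker share 5 times that of the next class that passed, except that T cells took precedence over NK cells and monocytes, and NK cells and plasmacytoid dendritic cells over monocytes. Droplets that failed (440 and 417) were set aside as mixed, which stands in for doublet removal, since no doublet caller was run. Gate thresholds were set after the data were seen. The members and the gene lists were chosen with earlier results of these data known.

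CPM of summed counts, exact Poisson and conditional binomial 95% intervals and a 2-fold call at 20 CPM (3 UMIs added to each sum) were computed with Python 3.11.15, numpy 2.4.6, scipy 1.17.1 and pandas 2.3.3, and the calls and intervals were tested on simulated data. A count of 0 is given with the limit that 3 UMIs set. With 1 library per suffix no test between conditions was possible. Named genes are the members in all classes, the list genes of highest CPM (for naming only) or called in deep hepatocytes, and the 3 most alike genes per member that reached 20 CPM in a class; other list genes named were chosen after their values were seen. Counts of 3' tags were not scaled by length, so no order of level between different genes is read from them. Positions and overlaps come from GENCODE M21, promoters from RefSeq GRCm38.p6.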

Additional observations from a re-analysis of the deposited data

How the results depend on the processing

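The counts of calls were recomputed under 66 combinations of a count and a setting, and 51 stayed within 1.5 times the main count. For calls between the libraries at a mitochondrial limit of 10%, the share of all genes called is given above. For the other settings it was not computed, and a looser fold or minimum can add calls in any set of genes. The counts therefore show how calls move with a setting and are no result about the members or lists. Members called between the libraries in deep hepatocytes (0) became 1 without a filter on droplets (Xbp1), 1 at a mitochondrial limit of 10% (Herpud1), 1 at 1.5-fold (Xbp1) and 2 with no minimum CPM (Atf3 and Fgf21). ISR target genes called (1) became 2 at a limit of 10%, 4 at 1.5-fold, 0 at 3-fold and 5 with no minimum. ER folding and ERAD genes called (0) became 6 at a limit of 10%, 3 at 1.5-fold and 1 with no minimum. Members called between deep and shallow hepatocytes (0 over both libraries) became 1 per non-mitochondrial UMI, 3 at 1.5-fold and 5 with no minimum. Members highest in deep hepatocytes, counted among classes of at least 30 droplets and so without plasma cells and cholangiocytes, and in library 1 without monocytes and stellate cells (8 over both libraries), became 5 without a filter. In plasma cells, genes called higher with 3 UMIs added and then by the second rule, added after the data were seen, went from 14 to 5 (library 1) and 15 to 4 (library 2) for the ISR list and from 1 to 0 for the sensors of library 1. That rule differs in 3 ways at once (no UMIs added, an interval off 1 and another minimum), which were not separated. The cause was not tested, apart from the thresholds that the settings themselves change. Hspa5, Xbp1, Herpud1, Trib3 and Fgf21 kept their direction between the libraries under all 11 settings that give a ratio. These settings count largely the same UMIs, so a kept direction is no independent check. Trib3 had 21 and 20 UMIs, and the interval of its ratio includes 1 (0.546, 0.282 to 1.06). The log2 ratio of library 1 over library 2 ranged from -1.02 to -0.21 for Herpud1 and from 0.57 to 1.01 for Xbp1. It ranged from -0.50 to -0.19 for Hspa5 and from -2.66 to -0.61 for Fgf21. Atf3 turned from -1.04 to 1.89 at a limit of 10%, Creb3l3 from 0.14 to -0.12 there, and Atf4 ranged from -0.08 to 0.47. With 20 CPM asked of both libraries together, a setting added after the data were seen, the counts of members, ISR and ER genes called between the libraries stayed at 0, 1 and 0. No paired analysis was possible because each suffix holds 1 library. The limits that bind are 1 liver per library, a suffix without a genotype, free RNA that was not measured apart and few plasma cells and cholangiocytes.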

Other observations

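Droplets that no marker gate named (139 in library 1 and 161 in library 2) had Fgf21 at 5.50 CPM (2.21 to 11.3, 7 UMIs) and 16.8 CPM (9.77 to 26.8, 17 UMIs). Atf3 was at 14.1 CPM (18 UMIs) and 28.6 CPM (29 UMIs) there. Their Herpud1 level was 306 CPM (276 to 337) and 520 CPM (476 to 566). Genes of the cell cycle (Cenpf, Mki67 and Top2a) and of antigen presentation (H2-Aa and H2-Eb1) led them over deep hepatocytes in library 1, and H2-Eb1, H2-Ab1 and Ccl22 were among those that led in library 2. Droplets set aside as mixed had Herpud1 at 167 CPM (149 to 187) and 335 CPM (310 to 361).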
